A study of Homo sapiens with 36 samples.

Results

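PLA2G2A and CAMK2N1 lie on the short arm of human chromosome 1 and were higher in every TRIM33 guide line of LNCaP cells than in the control line. Here they are described together with 8 genes that flank or separate them, to see how far along the chromosome that difference extends. The members are 10 of 61805 genes in the count table, taken by symbol: TMCO4, OTUD3, PLA2G2A, PLA2G5, UBXN10, VWA5B1, CAMK2N1, CDA, PINK1 and DDOST, in order of their start. Except for promoter windows, start and end here mean the lowest and highest coordinate of a gene, whatever its strand. They span positions 19682240 to 20661544 (GRCh38), and the table holds 31 rows that start inside this span, so the members are not all of its genes. The members were chosen by their measured log2 fold changes between guide lines and the control line in LNCaP and by their place beside the genes so found, so the differences in those comparisons are given below as a description with no p-value. For members, tests are given for the hormone response and its differences between lines, for the guide line against NT3 in 42D cells, and for C2 against F2. Tests on LNCaP cells use libraries that also entered the choice of members.

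The title of the study concerns the effect of losing TRIM33, an E3 ubiquitin ligase that acts on chromatin, on transcription by the androgen receptor. Polyadenylated RNA was sequenced from 36 libraries, 3 in each of 12 groups. 42D is a line derived from LNCaP by selection for resistance to the antiandrogen enzalutamide, and LNCaP is an androgen-responsive line from a lymph node metastasis of prostate cancer. The 42D lines were sgT33-5 and NT3, and the LNCaP lines were sgT33-5, sgT33-5_MC_C2, sgT33-5_MC_F2 (C2 and F2 from here) and NT3. No label spells the names out, and lines with T33 in their name are taken here as targeted at TRIM33 and NT3 as their control. The labels do not say which nuclease was used, whether a line is a clone or a pool, or whether replicates were separate cultures, so p-values measure the spread between these libraries, which may be technical. Every line was kept in hormone-stripped serum before it received R1881, a synthetic androgen, at 5 nM or the solvent DMSO, both for 6 h.

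Secreted phospholipases A2 such as PLA2G2A and PLA2G5 release fatty acids, arachidonic acid among them, from membrane phospholipids, and so feed the synthesis of eicosanoids. PLA2G2A is well known in prostate tumours, where it is often abundant. CAMK2N1 is an inhibitor of calcium/calmodulin-dependent protein kinase II. OTUD3 removes ubiquitin from other proteins, PINK1 is a kinase that marks damaged mitochondria for removal, DDOST is a subunit of the oligosaccharyltransferase that adds N-linked glycans in the endoplasmic reticulum, and CDA deaminates cytidine in pyrimidine salvage. TMCO4 encodes a membrane protein, UBXN10 a protein with a UBX domain and VWA5B1 a protein with a von Willebrand factor A domain.

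All 36 libraries held 13900744 to 19793268 counts. TRIM33 was lower in each guide line: with R1881 it averaged 73.9 CPM (counts scaled to a common library total) in 42D sgT33-5 and 105.3 CPM in 42D NT3, and 59.9, 42.4 and 58.4 CPM in LNCaP sgT33-5, C2 and F2 against 126.5 CPM in LNCaP NT3. With DMSO it averaged 57.3 CPM in 42D sgT33-5 and 84.5 CPM in 42D NT3, and 47.8, 35.1 and 42.3 CPM in LNCaP sgT33-5, C2 and F2 against 93.4 CPM in LNCaP NT3, and no guide library overlapped with NT3 of its cell line and treatment. Transcript was thus still present in each guide line, and a gene count can include reads of an edited transcript. The share of counts from mitochondrial genes was 2.40% in LNCaP sgT33-5 with R1881 replicate 1 and 2.14% in LNCaP sgT33-5 with DMSO replicate 3, whereas the 22 remaining LNCaP libraries had 4.16% to 6.66%. All 8 luminal prostate markers were above 1 CPM in both cell lines (KLK3 among them), whereas none of 3 basal and none of 3 leukocyte markers reached 1 CPM in any library. COL1A1, of 3 fibroblast markers, and VWF, of 3 endothelial markers, did so. Of the 8 luminal markers 2, 5 and 1 were called lower in LNCaP sgT33-5, C2 and F2 against NT3 with R1881, and none in 42D. Over all genes tested, 2.06%, 13.3% and 7.26% were called lower in those LNCaP comparisons. The part of these markers in the results below was not tested.

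RefSeq promoter windows of 250 bases before the start were matched for 8 of 10 members. Those of OTUD3, PLA2G2A and VWA5B1 that hold no exon bases are shown, because these members' responses to androgen and their differences between lines are described below. In each, capitals mark a match to the androgen receptor half-site AGAACA on either strand.
OTUD3, chr1:19882145-19882394, plus strand: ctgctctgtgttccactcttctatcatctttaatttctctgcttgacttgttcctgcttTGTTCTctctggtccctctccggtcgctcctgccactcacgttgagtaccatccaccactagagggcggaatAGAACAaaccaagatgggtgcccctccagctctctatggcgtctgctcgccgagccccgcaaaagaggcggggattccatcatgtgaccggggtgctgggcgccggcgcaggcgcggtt
PLA2G2A, chr1:19980435-19980684, minus strand: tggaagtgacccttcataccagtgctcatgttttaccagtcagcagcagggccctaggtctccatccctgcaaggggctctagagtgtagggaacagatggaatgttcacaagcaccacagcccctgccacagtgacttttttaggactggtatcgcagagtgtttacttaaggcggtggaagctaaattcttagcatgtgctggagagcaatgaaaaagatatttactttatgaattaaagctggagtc
VWA5B1, chr1:20290625-20290874, plus strand: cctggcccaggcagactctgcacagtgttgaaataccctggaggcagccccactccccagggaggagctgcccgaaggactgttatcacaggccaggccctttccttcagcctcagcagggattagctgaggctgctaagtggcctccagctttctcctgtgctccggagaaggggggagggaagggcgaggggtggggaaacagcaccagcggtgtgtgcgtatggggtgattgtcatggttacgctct
The OTUD3 window has matches at 191 to 186 and at 119 to 114 bases before the start, and the other two windows have none. RefSeq lists 3 starts for PLA2G2A. Of its other windows, which include exon bases, one holds a match at 9 to 4 bases before its start. The half-site is found in 12.4% of all 35116 promoter windows of this length (RefSeq on GRCh38.p14, both strands), and the full androgen response element, an inverted pair of half-sites 3 bases apart, in 1 of them, none a member's. These matches describe letters and are not measured binding sites. None of the windows of TMCO4, PLA2G5, UBXN10, CDA and DDOST holds the half-site. CAMK2N1 and PINK1 are named only.

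PLA2G2A (ENSG00000188257, chromosome 1, 19975431 to 19980416) was among the members that differed most in LNCaP cells. With R1881 its level was 83.8, 74.0 and 69.0 CPM in the sgT33-5 libraries, 87.7, 84.7 and 92.8 CPM in C2 and 66.7, 63.2 and 66.0 CPM in F2, against 18.7, 19.6 and 18.4 CPM in NT3. With DMSO it was 88.3, 81.7 and 81.0 CPM in sgT33-5, 90.9, 90.3 and 97.2 CPM in C2 and 74.7, 78.5 and 71.8 CPM in F2, against 21.6, 23.9 and 20.7 CPM in NT3. Every guide library lay above every NT3 library of its treatment. Group means were 4.0, 4.67 and 3.45 times that of NT3 with R1881, and 3.8, 4.21 and 3.40 times with DMSO, in sgT33-5, C2 and F2. In bulk RNA, fewer cells that make a transcript and less of it per cell cannot be told apart.

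CAMK2N1 (ENSG00000162545, 20482391 to 20486210), which lies 502 kb beyond PLA2G2A along the chromosome, was likewise apart from NT3 in each guide line. With R1881 it stood at 703.3, 743.6 and 676.5 CPM in sgT33-5, 724.0, 723.7 and 689.5 CPM in C2 and 701.0, 811.6 and 720.6 CPM in F2, against 193.8, 241.4 and 185.2 CPM in NT3. With DMSO the levels were 757.3, 871.3 and 780.0 CPM in sgT33-5, 783.6, 812.4 and 761.8 CPM in C2 and 750.0, 924.8 and 803.9 CPM in F2, against 252.0, 323.6 and 268.0 CPM in NT3. No guide library overlapped with NT3, and the ranges of the 3 guide lines overlapped with each other. The means were 3.42, 3.44 and 3.60 times that of NT3 with R1881 and 2.85, 2.79 and 2.94 times with DMSO, in sgT33-5, C2 and F2.

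**Figure D1:**
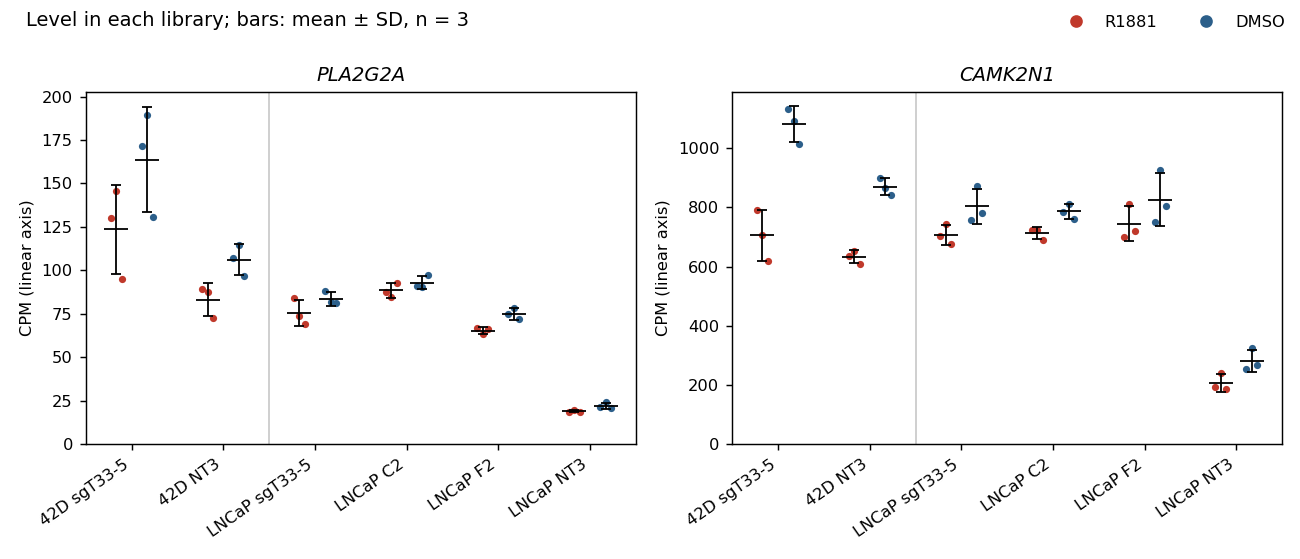
Level of PLA2G2A (left) and CAMK2N1 (right) in CPM on a linear axis from 0, by line, with R1881 in red left of DMSO in blue. Points are single libraries and bars the mean ± SD of 3. LNCaP NT3 is the lowest line for both genes, at 18.9 and 22.04 CPM of PLA2G2A with R1881 and DMSO, and the LNCaP guide lines lie near 42D NT3.

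Of the members between PLA2G2A and CAMK2N1, only VWA5B1 showed a clear difference, and the counts of the others were very low. Other rows of this interval are described further below. VWA5B1 (ENSG00000158816, 20290875 to 20359518), 1 of 3 members in this interval, was also higher in each guide line, at a low level. With R1881 it had 3.26, 3.46 and 3.31 CPM in sgT33-5, 2.84, 2.27 and 2.67 CPM in C2 and 2.46, 2.79 and 1.61 CPM in F2, against 0.893, 1.26 and 1.14 CPM in NT3. With DMSO the means were 2.09 ± 0.572 CPM in sgT33-5, 1.82 ± 0.176 CPM in C2 and 1.52 ± 0.345 CPM in F2, against 0.734 ± 0.208 CPM in NT3 (SD, n = 3). All 3 guide lines lay above NT3 without overlap in both treatments, on 9 to 55 counts per LNCaP library. PLA2G5 (ENSG00000127472, 20028179 to 20091911), a secreted paralog of PLA2G2A, had 1 to 14 counts in a LNCaP library and averaged 0.529, 0.499 and 0.573 CPM in sgT33-5, C2 and F2 with R1881, against 0.486 CPM in NT3. With DMSO it totalled 10, 7 and 16 counts over the 3 libraries of these lines, against 17 counts in NT3, so its values are limited by depth. UBXN10 (ENSG00000162543, 20186096 to 20196050) had 0 to 2 counts in each LNCaP library and did not pass the filter on low counts, so no difference was detectable at this depth. UBXN10 totalled 1, 2 and 1 counts over the 3 libraries of sgT33-5, C2 and F2 with R1881, against 1 count in NT3.

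The members outside the pair were higher by less or not at all. OTUD3 (ENSG00000169914, 19882395 to 19912945), which lies before PLA2G2A along the chromosome, averaged 23.4 ± 1.01, 31.6 ± 2.49 and 22.3 ± 2.18 CPM in sgT33-5, C2 and F2 with R1881, against 18.7 ± 2.05 CPM in NT3. With DMSO it averaged 29.2 ± 1.26, 33.4 ± 1.45 and 24.4 ± 2.15 CPM in the same lines, against 21.3 ± 0.429 CPM in NT3. Its F2 libraries with R1881 (20.6 to 24.7 CPM) overlapped with those of NT3 (16.8 to 20.9 CPM), and those of sgT33-5 and C2 did not. Without the pair of sgT33-5 libraries of low mitochondrial share the log2 fold change of OTUD3 in sgT33-5 with R1881 was 0.29, against 0.32 with them, and it was no longer called. That call was also lost in most fits that left out 1 library, and when only the libraries compared were fitted. PINK1 (ENSG00000158828, 20633458 to 20651511) averaged 68.4, 64.7 and 62.3 CPM in sgT33-5, C2 and F2 with R1881, against 51.5 CPM in NT3, and 67.8, 66.7 and 65.9 CPM with DMSO, against 53.6 CPM in NT3. These are 1.21 to 1.33 times the NT3 mean.

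DDOST (ENSG00000244038, 20651767 to 20661544), which lies just beyond PINK1 along the chromosome, had log2 fold changes between -0.10 and 0.04 in all 3 lines and both treatments. Its C2 libraries nevertheless lay below those of NT3 without overlap, at 147.4 to 153.2 CPM against 158.1 to 164.9 CPM with R1881 and at 146.2 to 153.3 CPM against 160.8 to 163.3 CPM with DMSO. TMCO4 (ENSG00000162542, 19682240 to 19799945), at the other end, had 0.12, 0.21 and 0.21 with R1881 and 0.01, 0.22 and 0.33 with DMSO in sgT33-5, C2 and F2. CDA (ENSG00000158825, 20589086 to 20618903), between CAMK2N1 and PINK1, had 8 counts in all 24 LNCaP libraries together and was not tested. The count table holds a further gene, PINK1-AS, that shares 8855 bases with PINK1 and 427 bases with DDOST. The kit marks strand, but whether the counting used it is not given in the sources used here, so reads of PINK1 and PINK1-AS may be shared. PINK1-AS itself had log2 fold changes of -0.23, -0.02 and -0.29 with R1881 in sgT33-5, C2 and F2, where PINK1 had 0.41, 0.33 and 0.27.

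**Figure D2:**
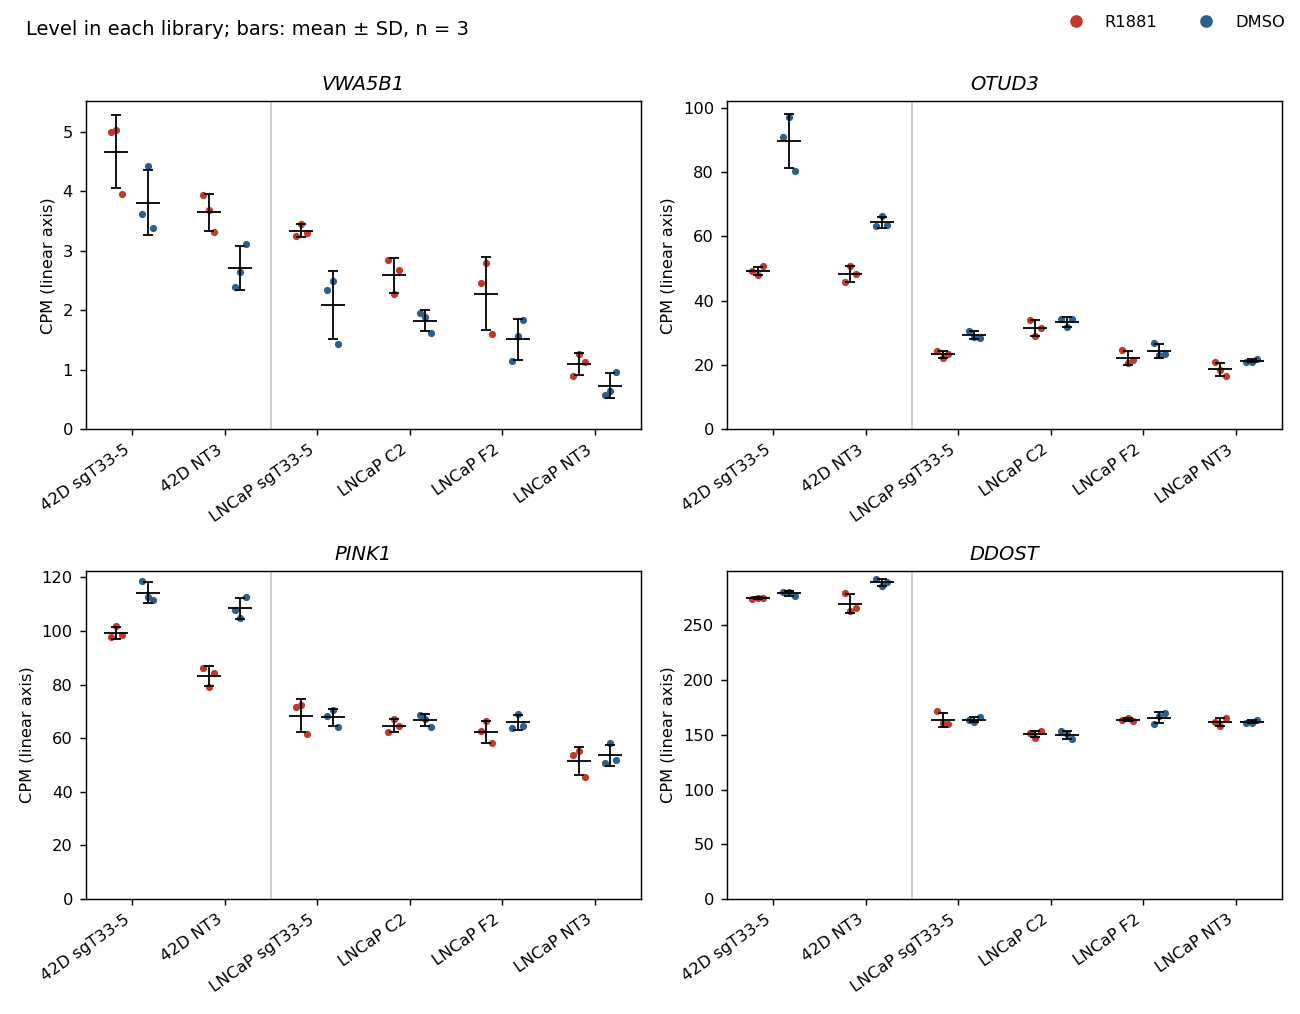
Levels of VWA5B1, OTUD3, PINK1 and DDOST in CPM on linear axes from 0, by line, with R1881 in red left of DMSO in blue; points are libraries and bars the mean ± SD of 3. LNCaP NT3 is the lowest line for VWA5B1, OTUD3 and PINK1, while DDOST is lowest in C2, at 150.8 CPM with R1881 and 150.1 CPM with DMSO, and all 4 genes are higher in 42D NT3 than in LNCaP NT3.

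Of the 10 members, 8 passed the filter on low counts in each fit. In sgT33-5, C2 and F2 against NT3, 5, 5 and 4 of the 8 were called higher with R1881 and 5, 5 and 5 with DMSO (edgeR, Benjamini-Hochberg adjusted p under 0.05), and none was called lower. Over all 15519 genes tested, 0.979%, 9.67% and 6.19% were called higher with R1881 and 0.509%, 8.53% and 8.94% with DMSO, while 2.06%, 13.3% and 7.26% were called lower with R1881 and 0.889%, 9.63% and 7.73% with DMSO. Because these comparisons chose the members, nothing is read from that difference. The median log2 fold change of the 8 was 0.37, 0.55 and 0.26 with R1881, against -0.01, 0.00 and -0.01 over all genes tested. In F2 with DMSO 3 of the 8 were called without NT3 DMSO replicate 1.

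Other rows of the table in and around the span were read in the same way. Within the span, 5 other rows were tested in LNCaP, of which 2, 4 and 3 were called higher in sgT33-5, C2 and F2 with R1881, and 2, 4 and 4 with DMSO, and none lower. The shares of all genes tested called higher were 0.979%, 9.67% and 6.19% with R1881 and 0.509%, 8.53% and 8.94% with DMSO. Because these comparisons chose the stretch, nothing is read from the counts of rows in or around it. The ENSG00000289402 row (20486358 to 20487405), which the table leaves without a name, lies 147 bases beyond the highest coordinate of CAMK2N1. It stood at 7.59, 8.36 and 6.80 CPM in sgT33-5, C2 and F2 with R1881, against 0.831 CPM in NT3, with log2 fold changes of 3.18, 3.32 and 3.02. MUL1, a ubiquitin ligase of the outer mitochondrial membrane between CAMK2N1 and PINK1, had log2 fold changes of 0.41, 0.32 and 0.29 in these lines. Of the 21 tested rows besides members within the span or 1 Mb to either side, only those were called in 1 direction in all 3 guide lines with R1881. PLA2G2F, a further secreted phospholipase between PLA2G2A and CAMK2N1 that was chosen after its values were seen, had 1.08, 1.52 and 0.98 with R1881 and was called in C2, and had 0.63, 1.51 and 1.18 with DMSO and was called in C2 and F2. The ENSG00000284710 row, a long noncoding RNA also chosen after its values were seen, had 14, 20 and 22 counts over the 3 libraries of sgT33-5, C2 and F2 with R1881, against 2 counts in NT3, and was called in C2 and F2 in both treatments.

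Outside the span, 16 rows within 1 Mb were tested in LNCaP, and their median log2 fold change with R1881 was -0.04, -0.04 and -0.05 in sgT33-5, C2 and F2. Called higher were 0, 1 and 0 of the 16, and called lower 1, 3 and 1. The shares of all genes tested were 0.979%, 9.67% and 6.19% higher and 2.06%, 13.3% and 7.26% lower. KIF17, a kinesin motor gene past DDOST that was also chosen after its values were seen, was the most negative of the 16 rows in C2, at -2.67 in C2 with R1881 on a mean of 0.109 CPM against 0.719 CPM in NT3. In sgT33-5 with R1881 it had 0.23, on 0.846 CPM, and in F2 -0.79, on 0.417 CPM, neither called.

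**Figure D3:**
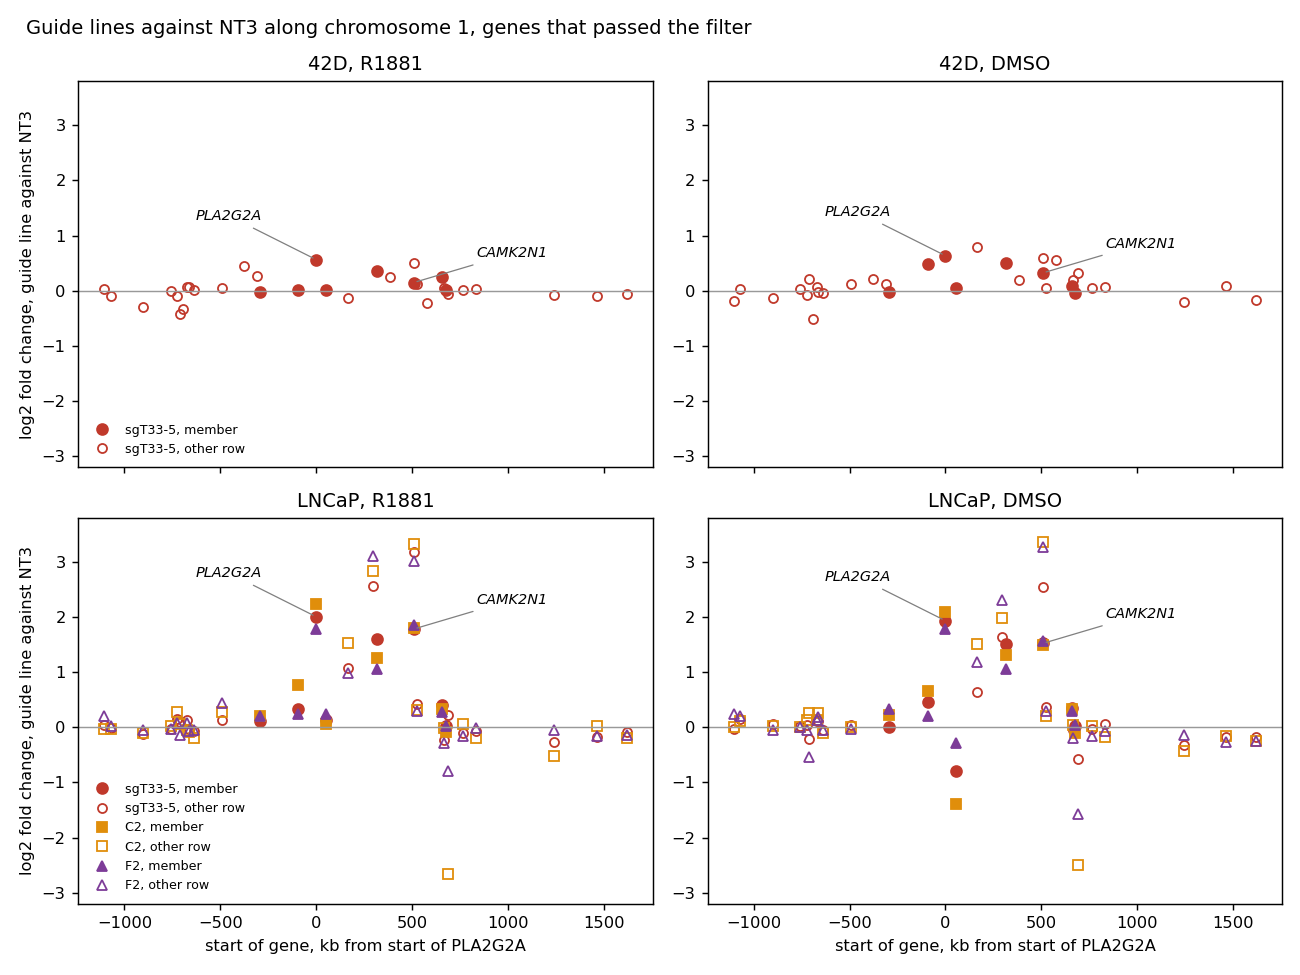
Log2 fold change of guide lines against NT3 for each gene that passed the filter, by distance of its start from the start of PLA2G2A in kb; filled symbols are members and open symbols other rows of the table, with 42D above LNCaP and R1881 left of DMSO. In LNCaP the values above 1 lie between PLA2G2A and the row beside CAMK2N1, and most genes farther out lie near 0.

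The 42D comparison was not used to choose the members, and some of them differed there between the guide line and NT3. With DMSO, OTUD3 and CAMK2N1 rose, which is 2 of 8 members tested, against 0.896% of 15403 genes called higher. With R1881 PINK1 rose, 1 of 8 against 0.396% called higher. The libraries of sgT33-5 all lay above those of NT3 for 3 of 8 members with R1881, against 7.51% of all genes tested, and for 4 of 8 with DMSO, against 8.19%. For DDOST with DMSO they lay below those of NT3 without overlap. The members' median log2 fold change was 0.08 with R1881 and 0.20 with DMSO, against -0.00 and 0.00 over all genes.

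OTUD3 with DMSO had 91.0, 97.1 and 80.5 CPM in 42D sgT33-5, against 63.2, 66.4 and 63.4 CPM in 42D NT3. The lowest guide library lay above the highest NT3 library, and the log2 fold change was 0.48 (SE 0.061, edgeR adjusted p = 7.91e-05). With R1881 the same lines had 49.2, 47.9 and 50.7 CPM against 45.9, 50.8 and 48.4 CPM, which overlap, and the log2 fold change was 0.02. CAMK2N1 with DMSO had 1134, 1093 and 1015 CPM in sgT33-5, against 900.1, 866.8 and 842.6 CPM in NT3, a log2 fold change of 0.32 (SE 0.069, edgeR adjusted p = 0.0304). Its groups did not overlap, but the call was lost in 5 of 6 fits that left out 1 library, at adjusted p of up to 0.153. The exception was the fit without sgT33-5 DMSO replicate 3. With R1881 CAMK2N1 had 789.5, 707.4 and 618.8 CPM in sgT33-5 against 635.2, 653.7 and 610.1 CPM in NT3, and the log2 fold change of 0.15 (SE 0.069) did not pass (edgeR adjusted p = 0.603).

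PLA2G2A was higher in the 42D guide libraries than in all NT3 libraries of the same treatment, but varied widely within groups. With R1881 it had 129.9, 145.5 and 95.1 CPM in sgT33-5, against 89.4, 87.6 and 72.5 CPM in NT3, and with DMSO 171.3, 189.1 and 130.5 CPM, against 106.8, 114.5 and 96.9 CPM. In each of these 4 groups replicate 3 was the lowest. The log2 fold changes of 0.56 (SE 0.189) with R1881 and 0.63 (SE 0.184) with DMSO did not pass (edgeR adjusted p = 0.45 and 0.223). With the replicate number as a block the value with R1881 was 0.55 (SE 0.063, edgeR adjusted p = 0.000152), and in that comparison the numbers paired the libraries. With DMSO, DESeq2 gave 0.63 (adjusted p = 0.039).

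PINK1 with R1881 had 97.8, 101.9 and 98.4 CPM in 42D sgT33-5, against 86.4, 79.2 and 84.5 CPM in NT3, with no overlap. The log2 fold change was 0.25 (SE 0.048, edgeR adjusted p = 0.013), and the call was lost without sgT33-5 replicate 2 (0.113) and without NT3 replicate 2 (0.117). VWA5B1 had 0.35 (SE 0.16) with R1881 and 0.49 (SE 0.174) with DMSO, neither called, and its libraries did not overlap in either treatment. The other members showed little in 42D: DDOST, TMCO4 and PLA2G5 had log2 fold changes between -0.04 and 0.05 in both treatments. With DMSO, DDOST nevertheless lay lower in sgT33-5 without overlap, at 276.8 to 280.6 CPM against 285.6 to 292.2 CPM in NT3. UBXN10 had 12 counts in sgT33-5 and 11 in NT3 with R1881, and 36 and 18 counts with DMSO. CDA had no count in any of the 12 libraries of 42D, and a count of 0 allows up to 3 counts by counting error alone. The ENSG00000289402 row beside CAMK2N1 rose by 0.59 on the log2 scale with DMSO (SE 0.11, edgeR adjusted p = 0.0083), and with R1881 its value was 0.50 (adjusted p = 0.0754). Whether the guide effect differs in size between 42D and LNCaP was not tested for these genes.

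The control line of 42D held more RNA of most members than that of LNCaP. The LNCaP NT3 libraries set against 42D here are the ones by whose low levels the members were chosen, so these values are a description with no p-value. In NT3 with DMSO, PLA2G2A averaged 106.1 ± 8.79 CPM in 42D and 22.04 ± 1.68 CPM in LNCaP (SD, n = 3 each), a log2 fold change of 2.27 (SE 0.132). CAMK2N1 averaged 869.8 ± 28.9 CPM in 42D and 281.2 ± 37.6 CPM in LNCaP, a log2 fold change of 1.63 (SE 0.096). VWA5B1 (1.88), OTUD3 (1.59), PINK1 (1.02) and DDOST (0.84) also had positive values, and TMCO4 had -0.21 (SE 0.089). By the edgeR threshold 7 of 8 members differed, where 68.1% of 16564 genes did, and nothing is read from that count. The ENSG00000289402 row differed by 4.0, with 16.0 CPM in 42D and 0.994 CPM in LNCaP. VWF, the 1 endothelial marker of 3 above 1 CPM, also separated the cell lines, with a summed level of the 3 markers of 0.525 to 1.29 CPM in 42D and 8.27 to 20.8 CPM in LNCaP, and its part in the result was not tested.

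Ordered by group mean, PLA2G2A ran from 18.9 CPM in LNCaP NT3 with R1881 to 163.6 CPM in 42D sgT33-5 with DMSO. Both LNCaP NT3 groups were lowest and did not overlap with the next group, LNCaP F2 with R1881 (65.3 CPM). From LNCaP F2 with DMSO (75.0 CPM) upwards, each group overlapped with its neighbour in the order, so that 42D NT3 with R1881 (83.2 CPM) lay among the LNCaP guide groups. CAMK2N1 had the same lowest pair, followed after a gap by 42D NT3 with R1881 (633.0 CPM). Its next groups overlapped in turn up to 42D NT3 with DMSO, and 42D sgT33-5 with DMSO (1081 CPM) stood above that without overlap.

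C2 and F2 carry the same guide label and were compared with each other. Their libraries also entered the comparisons with NT3 by which the members were chosen, while no NT3 library enters this difference. PLA2G2A was higher in C2, at 88.4 ± 4.08 CPM against 65.3 ± 1.84 CPM in F2 with R1881 and 92.8 ± 3.8 CPM against 75.0 ± 3.40 CPM with DMSO. The log2 fold changes were 0.44 (SE 0.063, edgeR adjusted p = 7.25e-06) and 0.31 (SE 0.062, edgeR adjusted p = 0.000704). OTUD3 was higher in C2 as well, by 0.51 (SE 0.083, edgeR adjusted p = 4.75e-05) with R1881 and 0.46 (SE 0.082, edgeR adjusted p = 0.000196) with DMSO, and no library overlapped for either gene. CAMK2N1, by contrast, differed by -0.06 (SE 0.095) and -0.07 (SE 0.095), with overlap between the lines. DDOST was lower in C2 with DMSO by a small amount, -0.14 (SE 0.041, edgeR adjusted p = 0.0176), a call lost without C2 DMSO replicate 3 (0.0566), without F2 DMSO replicate 3 (0.0502) and with no filter on low counts (0.109). These are 2 of 8 members with R1881 and 3 of 8 with DMSO, where 21% and 18.1% of all genes tested differed between the lines. TRIM33 averaged 42.4 CPM in C2 and 58.4 CPM in F2 with R1881, and 35.1 and 42.3 CPM with DMSO. Its part in the difference was not tested.

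R1881 lowered CAMK2N1, OTUD3 and PINK1 in 42D cells, and fewer members passed in LNCaP. In 42D, 3 of 8 members fell in sgT33-5 and the same number in NT3, where 13.2% and 11.4% of 15403 genes fell. None of the 8 rose, where 14.1% and 13.9% of genes did. CAMK2N1 fell by 0.61 (SE 0.069, edgeR adjusted p = 2.73e-06) in sgT33-5 and by 0.44 (SE 0.069, edgeR adjusted p = 0.000121) in NT3. OTUD3 fell by 0.86 (SE 0.062, edgeR adjusted p = 3.32e-10) in sgT33-5 and by 0.39 (SE 0.064, edgeR adjusted p = 6.28e-05) in NT3. PINK1 fell by 0.20 (SE 0.047, edgeR adjusted p = 0.00246) in sgT33-5 and by 0.36 (SE 0.048, edgeR adjusted p = 3.76e-06) in NT3. These 6 calls held in every fit that left out 1 library. PLA2G2A had -0.40 (SE 0.182) in sgT33-5 and -0.33 (SE 0.19) in NT3 and was not called (edgeR adjusted p = 0.149 and 0.264). With the replicate number as a block, which paired the libraries in both comparisons, its edgeR adjusted p was 6.58e-05 in sgT33-5 and 0.000811 in NT3. DDOST with that block had -0.08 in 42D NT3 (edgeR adjusted p = 0.0491).

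In LNCaP NT3, CAMK2N1 fell with R1881 by 0.45 (SE 0.097, edgeR adjusted p = 0.00209), the 1 call among 8 members, where 5.15% of 15519 genes fell. It had 193.8, 241.4 and 185.2 CPM with R1881 and 252.0, 323.6 and 268.0 CPM with DMSO, without overlap. The adjusted p was 0.0676 when only these 6 libraries were fitted. All 6 also entered the comparisons by which the members were chosen. In the guide lines CAMK2N1 had log2 fold changes of -0.19, -0.15 and -0.16 in sgT33-5, C2 and F2, none called by edgeR. The difference of each from the NT3 response was 0.26 (SE 0.136), 0.30 (SE 0.136) and 0.29 (SE 0.136), and none passed (edgeR adjusted p = 0.653, 0.724 and 1.0), so the responses are not shown to differ. Each such difference is that between the guide line comparisons with R1881 and with DMSO, by which the members were chosen.

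In LNCaP sgT33-5, OTUD3 fell by 0.33 (SE 0.085, edgeR adjusted p = 0.00848) and VWA5B1 rose by 0.66 (SE 0.211, edgeR adjusted p = 0.0378), 1 of 8 each way where 5.7% of genes fell and 6.78% rose. The VWA5B1 call was lost in 5 of 6 fits without 1 library, at adjusted p up to 0.211, with DESeq2 (0.071), and when only its libraries were fitted (0.0723). It was kept without DMSO replicate 2. Without the pair of libraries of low mitochondrial share its value was 0.47 (edgeR adjusted p = 0.268), and PLA2G2A then had -0.26 (edgeR adjusted p = 0.0168), against -0.15 (edgeR adjusted p = 0.117) with them. VWA5B1 had positive values in all 6 lines, from 0.30 in 42D sgT33-5 to 0.66 in LNCaP sgT33-5. PLA2G5 was positive in all 6 too, from 0.38 in LNCaP NT3 to 1.82 in LNCaP C2, where it had 28 counts in 3 libraries with R1881 and 7 with DMSO, and was called in none (edgeR adjusted p = 0.07 in C2). In F2, PLA2G2A fell by 0.21 (SE 0.063, edgeR adjusted p = 0.0298), 1 of 8 where 3.98% of genes fell. That call was lost in 4 of 6 fits without 1 library (DMSO replicates 1 and 2, R1881 replicates 2 and 3, adjusted p up to 0.166) and with only its libraries (0.0666). In F2 the replicate numbers paired the libraries, and the block added CAMK2N1 (-0.16, edgeR adjusted p = 0.0292) and TMCO4 (-0.20, edgeR adjusted p = 0.0196). In C2 edgeR called 0 of 8 members, where 5.66% of genes responded, with 2 at an unadjusted p under 0.05 and 0 called by DESeq2.

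**Figure D4:**
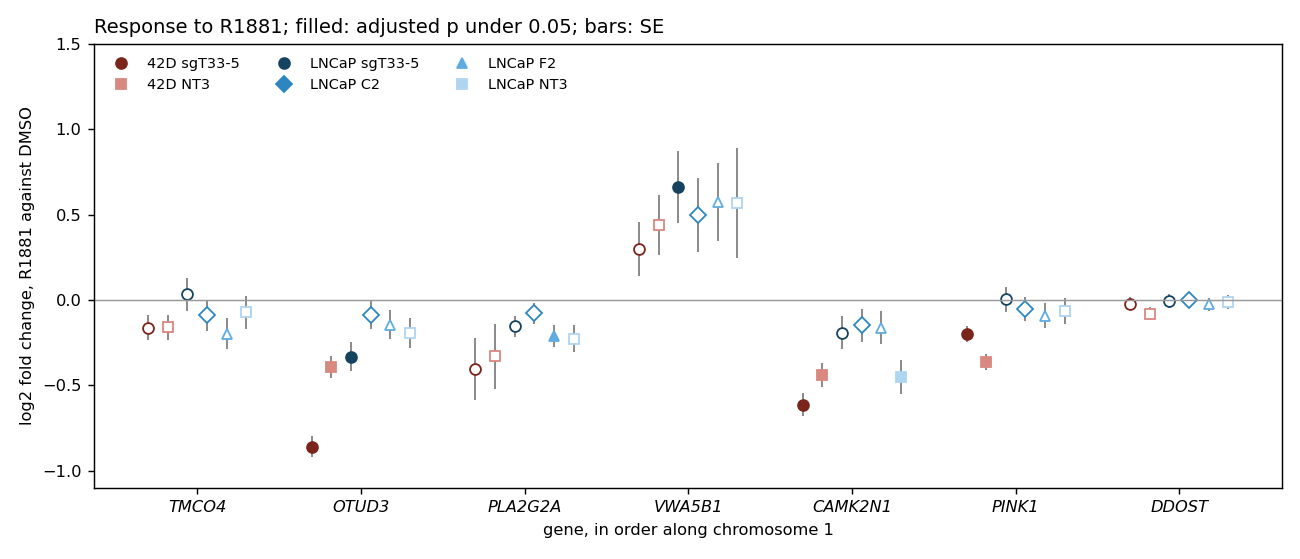
Log2 fold change of R1881 against DMSO in each of 6 lines, 42D left of LNCaP and guide lines left of NT3, for 7 members in order along chromosome 1. Symbols are estimates with their SE, filled where the adjusted p is under 0.05. OTUD3, CAMK2N1 and PINK1 are filled below 0 in both 42D lines, and VWA5B1 lies above 0 in all 6 lines.

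Tests of the difference between responses called few members. In LNCaP, edgeR called 0 of 8 members for sgT33-5, C2 and F2 against NT3, with 0, 1 and 1 at an unadjusted p under 0.05, and DESeq2 called 0 in each. Over all genes edgeR called 0, 0.689% and 0 of the 15519, with 1206, 978 and 454 genes at an unadjusted p under 0.05 and 0, 156 and 6 genes called by DESeq2. In 42D the OTUD3 response was lower in sgT33-5 than in NT3 by 0.47 on the log2 scale (SE 0.089, edgeR adjusted p = 0.0399), where 0.123% of genes differed. The PINK1 response was lower in 42D NT3 than in LNCaP NT3 by 0.33 (SE 0.093, edgeR adjusted p = 0.0366), where 3.85% differed. The LNCaP NT3 libraries in this test also entered the choice of members. Both calls were lost in most fits that left out 1 library, as given in the closing section.

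The genes whose 12 group means of log2 CPM were most like those of PLA2G2A included 2 rows of the same stretch. PLA2G2A and CAMK2N1 were chosen together for a shared difference between LNCaP guide lines and NT3, which is part of these means, so their likeness to each other follows in part from that choice. Among 11196 other genes that averaged at least 5 CPM, ENSG00000289402 came first (Pearson r = 0.98), then CAMK2N1 (0.95), HILPDA, a lipid droplet protein gene (0.91), SLC27A5, a bile acid and fatty acid CoA ligase gene (0.91), and RPL12, a ribosomal protein gene (0.90). For CAMK2N1 the order was PLA2G2A (0.95), ENSG00000289402 (0.93), RNF128, a ubiquitin ligase gene (0.90), GEMIN4, a gene of the SMN complex (0.89), and HILPDA (0.88). Other members were less like PLA2G2A: PINK1 had 0.81, OTUD3 0.76, DDOST 0.52 and TMCO4 -0.22. These are descriptions over 12 groups that share lines, treatments and cell lines. Over the 36 libraries, 2 of the 5 genes for PLA2G2A and 3 of the 5 for CAMK2N1 were again among the first 5.

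The pathways in which the members act were read from lists of related genes. Of 22 phospholipase A2 and eicosanoid genes tested in LNCaP, 0, 2 and 1 rose and 2, 4 and 4 fell in sgT33-5, C2 and F2 against NT3 with R1881, and their medians were -0.01, 0.00 and -0.03. In the same comparisons 0.979%, 9.67% and 6.19% of all genes tested rose and 2.06%, 13.3% and 7.26% fell, and the counts of this list and the 4 that follow are to be read beside those shares. HPGD, which inactivates prostaglandins, fell in all 3, with log2 fold changes of -0.82, -2.81 and -1.66 (edgeR adjusted p = 0.0251, 3.67e-09 and 7.23e-06). In C2 PLA2G7, a lipoprotein-associated phospholipase, had -2.62 and PTGS1, a cyclooxygenase, had 1.92 (edgeR adjusted p = 9.67e-05 and 0.0158). Of 12 CaM kinase genes, 0, 4 and 1 rose and 1, 3 and 4 fell. CAMKK2, an upstream kinase, fell in all 3, with -0.34, -1.13 and -0.34 (edgeR adjusted p = 0.00346, 1.54e-12 and 0.000865). CAMK2B, a subunit of the kinase that CAMK2N1 inhibits, rose in C2 by 0.79 (edgeR adjusted p = 6.01e-06). DAPK1, a death-associated kinase, fell to 12 counts in 3 libraries of C2 and 1 count in F2, against 71 counts in NT3 (edgeR adjusted p = 9.23e-06 and 3.91e-07).

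Of 26 genes in the PINK1 mitophagy list, 1, 4 and 2 rose and 1, 8 and 4 fell in the same comparisons, where the C2 shares over all genes were 9.67% higher and 13.3% lower. Those that rose included MUL1, and DNM1L, a mitochondrial fission gene, fell in all 3, with -0.26, -0.64 and -0.33 (edgeR adjusted p = 0.00515, 7.43e-10 and 7.73e-05). Of 11 oligosaccharyltransferase subunits none rose and 0, 3 and 0 fell, with MAGT1 down by 0.23 in C2 (edgeR adjusted p = 0.00242). Of 22 pyrimidine salvage genes 0, 5 and 0 rose and 0, 1 and 2 fell, with SLC29A1, a nucleoside transporter, up by 0.64 in C2 (edgeR adjusted p = 0.000105). In 42D with R1881, PTGER4, a prostaglandin receptor, was the 1 gene of these 5 lists to pass, up by 0.34 (edgeR adjusted p = 0.0482), where 0.396% of all genes rose.

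With R1881 against DMSO, several of these pathway genes changed in both cell lines. The LNCaP NT3 libraries with R1881 also entered the guide line comparisons above in which these genes were named. HPGD rose by 2.5 in 42D NT3 and by 3.60 in LNCaP NT3 (edgeR adjusted p = 1.24e-07 and 4.48e-10), and CAMKK2 by 1.79 and 1.70 (edgeR adjusted p = 2.27e-17 and 6.43e-16). DNM1L rose by 1.16 in 42D NT3 and by 1.05 in LNCaP NT3 (edgeR adjusted p = 8.99e-15 and 5.69e-14). MUL1, inside the stretch, fell by 0.42 and 0.27 (edgeR adjusted p = 7.46e-06 and 0.00221). The median of each list lay between -0.16 and 0.05 in these lines, against -0.00 and -0.01 over all genes tested.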

How the data were processed

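Polyadenylated RNA was sequenced with a stranded kit and 51-base paired reads. Per the submitters' processing notes, the authors used cutadapt and HISAT2 2.1.0 with hg38. The counting tool, its annotation and its strand setting are not given in the sources used here. The authors deposited raw counts per gene, 13900744 to 19793268 per library. One row without a gene ID held 0 counts. Replicates differed by more than counting error (chi-square per gene 2.59 to 24.2 over 36 pairs), and each was treated as 1 sample. That spread does not show whether replicates were separate cultures. Pairs with either LNCaP sgT33-5 library of low mitochondrial share gave 16.0 to 24.2.

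The test was that of edgeR 4.0.16 (R 4.3.3), fitted to 24 LNCaP libraries, 12 of 42D, or all 36. The settings were TMM scaling, filterByExpr on the groups, a robust 2-sided quasi-likelihood F test, and a threshold of 0.05 after Benjamini-Hochberg adjustment over all genes tested. SE is the log2 fold change over the root of F, and levels are CPM on TMM totals. The test was tried on simulated data. Members and lists were chosen with earlier results of these data known. Named besides members are TRIM33, the 5 genes most like PLA2G2A or CAMK2N1 (log2 CPM, prior count 2), rows within 1 Mb called alike in all 3 LNCaP guide lines with R1881 or in both 42D comparisons, and up to 3 called genes per list. Replicate numbers were taken to pair libraries where every same-numbered pair of deviations correlated above 0.1, which held in 7 of 22 comparisons: R1881 in LNCaP F2, 42D NT3 and 42D sgT33-5, sgT33-5 against NT3 with R1881 in both cell lines, F2 against NT3 with DMSO, and C2 against F2 with DMSO. As alternatives, DESeq2 1.42.0 replaced edgeR, RLE replaced TMM, the filter was dropped, each comparison was fitted alone, the replicate number was added as a block, and libraries were left out.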

Additional observations from a re-analysis of the deposited data

Results flagged for a closer look

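In 42D, the R1881 response of OTUD3 in sgT33-5 minus that in NT3 was -0.47 on the log2 scale (SE 0.089, edgeR adjusted p = 0.0399), a difference tested with an interaction term. The levels behind it were 49.3 CPM with R1881 and 89.5 CPM with DMSO in sgT33-5, and 48.4 CPM with R1881 and 64.4 CPM with DMSO in NT3. The call held in 4 of 12 fits that left out 1 library, where the adjusted p was 0.00175 to 0.158.

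The R1881 response of PINK1 in 42D NT3 minus that in LNCaP NT3 was -0.33 (SE 0.093, edgeR adjusted p = 0.0366), also from an interaction term. PINK1 averaged 83.3 CPM with R1881 and 108.5 CPM with DMSO in 42D NT3, and 51.5 CPM with R1881 and 53.6 CPM with DMSO in LNCaP NT3. The call held in 3 of 12 fits without 1 library, with adjusted p of 0.00759 to 0.213. The LNCaP NT3 libraries of this comparison also entered the choice of members.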

How the results depend on the processing

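No direction of a called member turned round under any alternative: of 2184 single-member values under alternatives, 2083 kept their side of the threshold, 67 lost a call, 34 gained one and 0 reversed. Counts of members called, out of the 8 tested with the filter and all libraries, moved by over 1.5 times as follows. Under the same settings the other counts stayed within 1.5 times, 1 or 2 members away at most. Fits with no filter, or without 1 library, could also test a member that had not passed the filter. DESeq2 gave 1 member for R1881 in LNCaP sgT33-5, against 2 with edgeR (and, within 1.5 times, 3 against 2 for sgT33-5 against NT3 in 42D with DMSO and for C2 against F2 with R1881, 6 against 5 for C2 against NT3 with DMSO, and 6 against 7 for 42D against LNCaP). The call that DESeq2 added for C2 against NT3 with DMSO was DDOST, lower in C2, and the replicate block also called it lower. RLE size factors gave 0 for the R1881 response of 42D NT3 minus that of LNCaP NT3, against 1. With no filter on low counts that count was 0 too, and sgT33-5 against NT3 in 42D with R1881 had 2, against 1. With only the libraries compared, R1881 in LNCaP gave 0 in NT3 and 0 in F2, against 1 in each, 1 in sgT33-5, against 2, and 1 in C2, against 0, and the response of 42D NT3 minus that of LNCaP NT3 gave 0, against 1. The causes were not tested.

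With the replicate block, R1881 gave 2 members in LNCaP NT3 (against 1), 1 in C2 (against 0), 3 in F2 (against 1) and 5 in 42D NT3 (against 3), sgT33-5 against NT3 in 42D with R1881 gave 2 (against 1), and the response of C2 minus that of NT3 in LNCaP gave 1 (against 0). In 42D sgT33-5 with R1881 it added PLA2G2A. In comparisons that did not meet the rule for pairing, the block called PLA2G2A in LNCaP NT3 (-0.22, edgeR adjusted p = 0.0427), CAMK2N1 in LNCaP sgT33-5 (-0.19, edgeR adjusted p = 0.00837), PLA2G5 in C2 (1.81, edgeR adjusted p = 0.0247), the CAMK2N1 difference of response in C2 (0.30, edgeR adjusted p = 0.0207), DDOST in C2 against F2 with R1881 (-0.11, edgeR adjusted p = 0.0231), and PLA2G2A in 42D sgT33-5 against NT3 with DMSO (0.62, edgeR adjusted p = 1.91e-05), where all 6 libraries correlated best with their own number. So did all 6 for R1881 in LNCaP NT3, with same-number correlations of 0.093 to 0.332, and all 12 for the C2 difference of response. In LNCaP sgT33-5, in C2 and in C2 against F2 with R1881, 3, 5 and 4 of 6 did. The block ended no member's call.

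Leaving out 1 library in turn gave 1 to 2 members for R1881 in LNCaP NT3 and in sgT33-5, 0 to 1 in F2 and 3 to 4 in 42D sgT33-5. The call added in 42D sgT33-5 was of a member outside the 8. Leaving out 1 library gave 0 to 1 with R1881 and 1 to 2 with DMSO for sgT33-5 against NT3 in 42D, 4 to 5 in LNCaP, 3 to 5 for F2 against NT3, 2 to 3 for C2 against F2 with DMSO, 7 to 8 for 42D against LNCaP, and 0 to 1 for both differences of response that were called. For 42D against LNCaP, TMCO4 lost its call in several of these fits, while a member outside the 8 was called. Over all genes, the count for sgT33-5 against NT3 in 42D was 222 with R1881 and 438 with DMSO with no filter, and 331 and 665 with the block, against 79 and 174. For sgT33-5 against NT3 in LNCaP it was 743 and 391 with no filter, 1264 and 774 with the block, and 188 and 128 once both libraries of low mitochondrial share were dropped, against 472 and 217, and 194 with R1881 with only the libraries compared. For the difference of response in 42D it was 70 with DESeq2, 168 with no filter and 196 with the block, against 19. With the block R1881 called 2985 genes in LNCaP sgT33-5, 1398 in C2 and 2455 in F2, against 1936, 879 and 1611, F2 against NT3 had 3345 with R1881 and 3926 with DMSO, against 2087 and 2587 (1178 with R1881 with only the libraries compared), and the response of 42D NT3 minus that of LNCaP NT3 had 1033, against 638. Differences of response in LNCaP gave 22, 326 and 17 genes for sgT33-5, C2 and F2 with the block and 26, 191 and 19 with no filter, against 0, 107 and 0 (F2 had 1 with RLE). Genes at the counts of PLA2G5, UBXN10 and CDA are limited by depth.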
